A study of Mus musculus with 68 samples.

Results

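ERY-V and ERY-VI are the last 2 of 6 erythroid gates sorted by flow cytometry from mouse bone marrow, and the labels call them reticulocytes and red blood cells. The comparison took 4 libraries of each, ERY-VI replicates 1 to 4 against ERY-V replicates 4 to 7, and joined them in 4 pairs by their order within the gate, so that ERY-V replicates 4, 5, 6 and 7 formed pairs 1, 2, 3 and 4 with ERY-VI replicates 1, 2, 3 and 4. These are 8 of the 38 libraries of the stage series and of the 68 libraries of the whole series. All 24059 genes of the table were considered, and 3148 had enough counts to be tested. The other 3 ERY-V libraries carry Y-linked transcripts and entered an alternative only, whereas all 8 libraries compared here carry Xist and at most 0.613 CPM, a library's count of a gene scaled to a total of 1000000, of 4 Y-linked genes. No treatment or genetic change is labelled for these cells. The sources used here do not give strain, age or the antibodies of the gates, nor whether replicates are separate mice, so p-values measure only how libraries spread, and that spread may be technical.

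A reticulocyte is a red cell that has expelled its nucleus and makes no new RNA. It still translates the messages it inherited, most of them for globin, and finishes haem there while it clears its mitochondria and ribosomes by autophagy and ubiquitin-dependent degradation and sheds surface proteins such as the transferrin receptor in vesicles. No spike-in or RNA content per cell is given in the sources used here, so a loss shared by all messages cannot be seen in these libraries and fewer cells of a type cannot be told apart from less RNA per cell.

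Depth ranged from 1988166 to 6132158 counts in ERY-V and from 1630863 to 3396874 in ERY-VI. ERY-V replicate 5 stood apart. It was the deepest library, had a count in 13898 genes where the other 7 libraries had 5102 to 10109, and held 3765 CPM of 19 neutrophil marker genes, against 1.51 to 129 CPM in the other ERY-V libraries and 1.12 to 897.5 in ERY-VI. Within ERY-VI the high neutrophil sums were in replicates 1 and 2, with 509 and 897.5 CPM, and the low ones in replicates 3 and 4, with 1.12 and 17.8 CPM. Globin genes held 38.1% of counts in ERY-V replicate 5, 50.3 to 58.9% in the other ERY-V libraries and 57.2 to 71.1% in ERY-VI.

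The 10 most abundant genes took a larger share of ERY-VI libraries than of ERY-V libraries, and the differences in globin share and in the number of genes did not pass the test. The globin share was 55.4, 38.1, 58.9 and 50.3% in the 4 ERY-V libraries and 71.1, 57.2, 67.9 and 59.7% in their ERY-VI partners. It was higher in ERY-VI in 4 of 4 pairs, with means of 50.7 ± 9.10% and 64.0 ± 6.59% (SD, n = 4 each), but the gates overlapped and the difference did not pass a two-sided exact permutation test (p = 0.0571, smallest possible 0.0286). The 10 most abundant genes of each library took 60.3 ± 8.51% of counts in ERY-V and 75.9 ± 4.42% in ERY-VI, with no overlap between the gates (exact permutation p = 0.0286, and 0.0571 without ERY-VI replicate 1, 2 or 3). An exact sign-flip test of 4 pairs is too small to pass the threshold. In an equal number of 1630863 counts, 8238 ± 2260 genes were expected in ERY-V and 5870 ± 786 in ERY-VI, fewer in 4 of 4 pairs (exact permutation p = 0.0571). The difference in means was -2368 genes, and -1292.5 genes without ERY-V replicate 5.

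**Figure D1:**
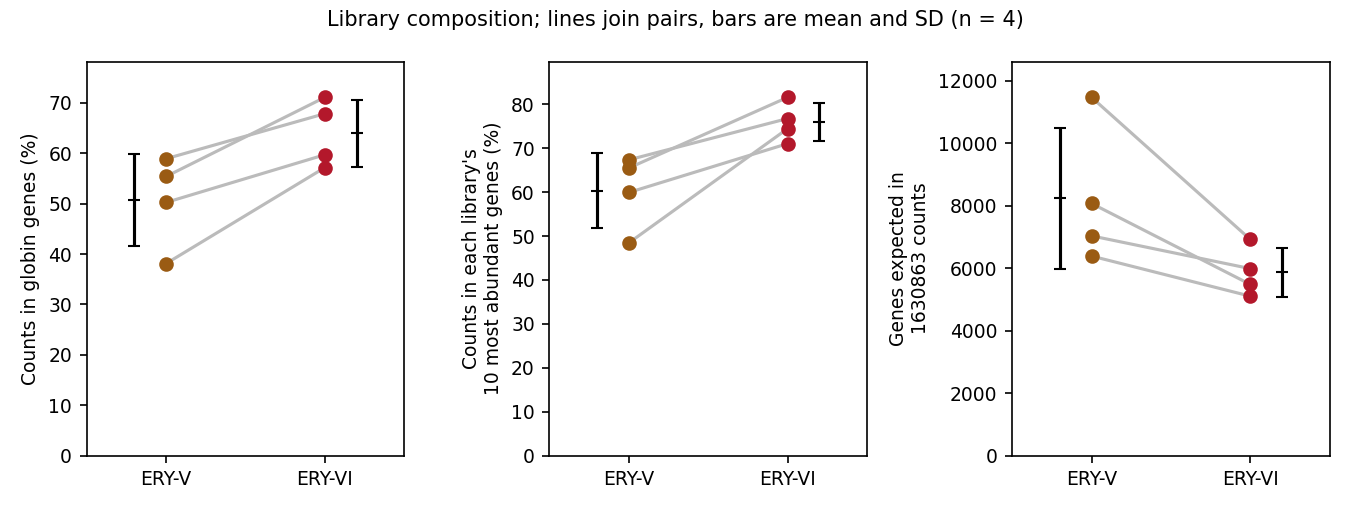
Share of counts in globin genes, share of counts in the 10 most abundant genes of each library, and number of genes expected in 1630863 counts, for the 4 ERY-V and 4 ERY-VI libraries; grey lines join the pairs and bars give the mean and SD. Globin shares were higher and gene numbers lower in ERY-VI in 4 of 4 pairs.

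The outcome for single genes depended on what they were measured against. Fold changes below are on the TMM scale, which adjusts each library by a trimmed mean of its genes' log ratios to a reference library. CPM values are shares of the library total. On the TMM scale, with the pair in the model, 212 of 3148 genes were called at an adjusted p under 0.05 (6.73%): 116 were higher in ERY-VI (3.68%) and 96 lower (3.05%). Measured against library totals, 644 were called (20.5%), 14 higher (0.445%) and 630 lower (20%). The median log2 fold change of all genes was -0.39 on the TMM scale and -1.67 by library totals, a shift of 1.28. A gene called higher on the TMM scale with a log2 fold change near 1.28 therefore held about the same share of counts in both gates. Of the 116 genes called higher, 91 had a positive and 25 a negative fold change by library totals, and 13 were called higher there too. All 96 genes called lower were also called lower by library totals, but that scale moves genes down, so this is not a separate check of them. Set against the sum of the ribosomal protein genes instead, 2 genes were called higher and 870 lower. By CPM the gates did not overlap in 13 of the 116 and 94 of the 96, against 14 genes above (0.445%) and 926 below (29.4%) among all 3148. The calls came from these same libraries and CPM also moves genes down, so this contrast is not a separate check either.

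The calls rested on the pairing and on single libraries to a large degree. Without the pair in the model 65 genes were called (2.06%), 52 higher (1.65%) and 13 lower (0.413%), all of them among the 212. Leaving out ERY-V replicate 5 gave 109 higher and 63 lower, whereas leaving out ERY-V replicate 4 gave 65 and 28, leaving out ERY-VI replicate 1 gave 59 and 24, and leaving out ERY-VI replicate 2 gave 81 and 52. In all 8 fits with 1 library left out, 49 of the 116 and 14 of the 96 calls held. The called genes described below are marked by whether theirs did. The exceptions are Dcaf12, Ube2b, Ube2r2, Bcl2l13 and Slc25a39, for which this is not given. In the paired model a library without its partner adds nothing to the fold change, so leaving out a library is close to leaving out its pair. Counts of called members in each list below stand beside 3.68% higher and 3.05% lower among all genes on the TMM scale. For library totals these shares were 0.445% and 20%. A list near them was called no more often than genes at large.

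**Figure D2:**
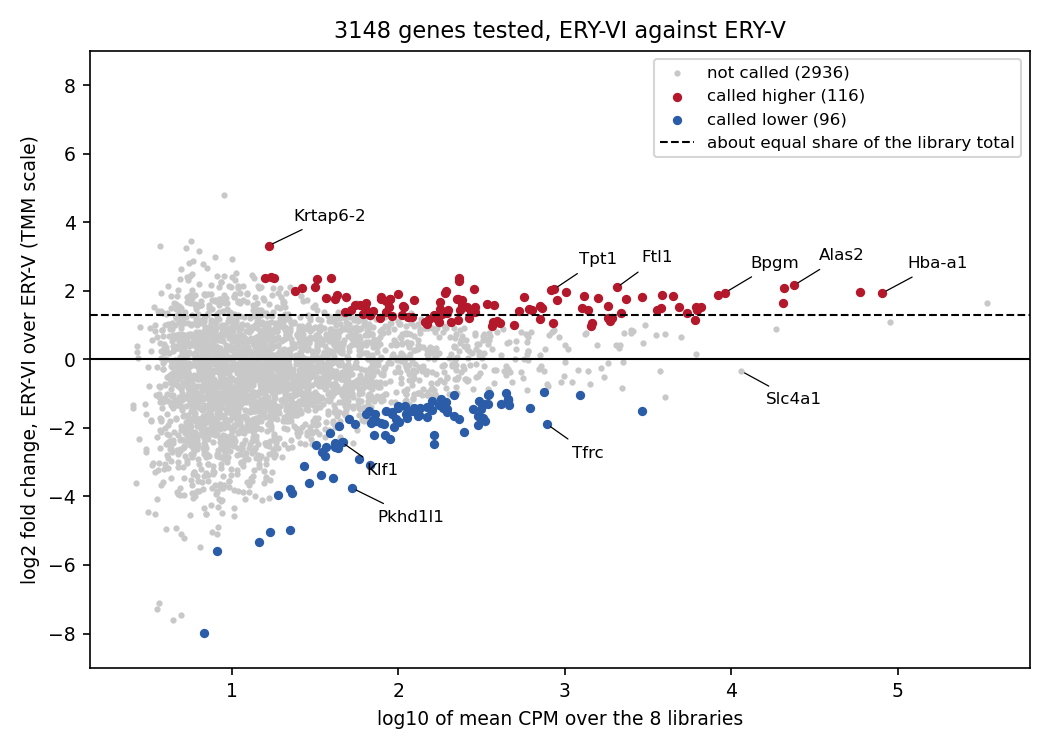
Each point is 1 of 3148 genes, with the log10 of its mean CPM over the 8 libraries on the x axis and its log2 fold change of ERY-VI over ERY-V on the TMM scale on the y axis; red points were called higher (116) and blue points lower (96). The dashed line lies 1.28 above 0, where a gene's share of the library total was about equal in both gates.

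Alpha globin was higher in ERY-VI on both scales. Hba-a1, 1 of 2 alpha chain genes, stood at 61471, 41552, 70659 and 81144 CPM in ERY-V and at 93043, 97556, 97720.2 and 103488 CPM in ERY-VI. Every ERY-VI library was above every ERY-V library. The log2 fold change was 1.93 ± 0.53 (SE) with an adjusted p of 0.0195 on the TMM scale and 0.66 by library totals. Its neighbour Hba-a2 gave 1.96 ± 0.51 (adjusted p = 0.0126), and because their coding sequences are 99.8% identical the authors' counting could split reads between them. Both calls ended when either library of pair 1 or pair 4 was left out. The beta chain genes did not pass on the TMM scale, which alone does not show that alpha and beta changed differently. Hbb-b1 over the sum of both alpha genes averaged 2.83 ± 0.597 for ERY-V against 2.27 ± 0.382 for ERY-VI (SD, n = 4 each). This ratio was higher in ERY-VI in 0 of 4 pairs, but the gates overlapped and the difference did not pass (exact permutation p = 0.114). Hbb-b1, the most abundant message of both gates, was at 301183 ± 54905 CPM in ERY-V and 385349 ± 53969 CPM in ERY-VI (n = 4 each; log2 fold change 1.65 ± 0.67, adjusted p = 0.129), higher in 4 of 4 pairs, and was called by library totals (adjusted p = 0.0135). Hbb-b2 was at 95373 ± 19472 and 83546 ± 16852 CPM (adjusted p = 0.198). Whether reads were split between Hbb-b1 and Hbb-b2 was not tested. Of the 6 globin genes tested 2 were called higher, and the median log2 fold change was 1.69.

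Genes of haem synthesis were called in both directions. The pathway begins and ends in mitochondria and has its middle steps in the cytosol. Alas2, the erythroid first enzyme of the pathway, stood at 18347, 16496, 14940.2 and 17225 CPM in ERY-V and at 30081, 37183, 27608 and 29373 CPM in ERY-VI. The gates did not overlap, and the log2 fold change was 2.16 ± 0.43 (adjusted p = 0.00116), with 0.89 by library totals. Fech, the last enzyme, which inserts iron into the ring, was also called higher (1.44 ± 0.36, adjusted p = 0.00953), from 5802 ± 561 to 6639.6 ± 1722 CPM. Slc25a37, the mitoferrin that carries iron into the mitochondrion, was called higher as well (1.34 ± 0.34, adjusted p = 0.0112), with shares of the total of 5306 ± 309 and 5603 ± 1029 CPM.

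The genes called lower included Abcb10 and Cpox. Abcb10, a mitochondrial inner membrane transporter needed for haem synthesis, went from 220.5, 529, 169.8 and 285 CPM to 7.07, 11.4, 31.4 and 61.3 CPM (-2.47 ± 0.42, adjusted p = 0.000266). Cpox, which makes protoporphyrinogen, fell by 1.42 ± 0.35 on the log2 scale (adjusted p = 0.00755), from 312 ± 106 to 59.8 ± 44.5 CPM. Of 14 haem genes tested, 3 were called higher (21.4%) and 3 lower (21.4%), and the median was -1.06. By library totals 1 was called higher and 8 lower. The call of Abcb10 held with any 1 library left out. Those of Alas2, Fech, Slc25a37 and Cpox ended without either library of pair 1. That of Slc25a37 ended also without either library of pair 4, and that of Fech also without ERY-VI replicate 4.

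**Figure D3:**
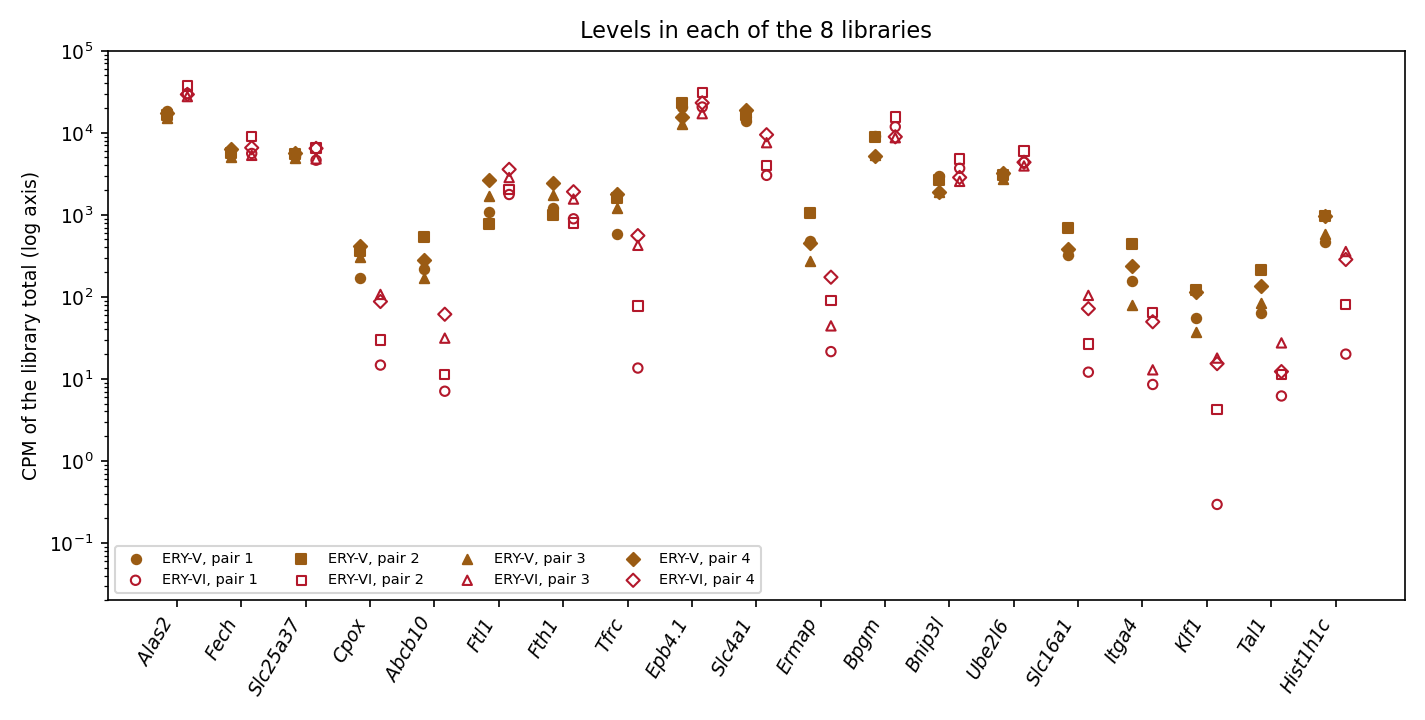
CPM of 19 genes in each of the 8 libraries on a log axis, filled brown symbols for ERY-V and open red symbols for ERY-VI, with 1 symbol shape for each pair. Alas2 and Ube2l6 lie above ERY-V in all 4 ERY-VI libraries, and Abcb10, Tfrc, Slc16a1 and Klf1 lie below it, lowest in ERY-VI replicates 1 and 2.

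Of 11 iron genes tested, of 20 in the list, 5 were called higher and 1 lower on the TMM scale (median 0.48), and 1 higher and 1 lower by library totals (median -0.83). The gene called lower was Tfrc, the receptor that brings iron in. Cells post-transcriptionally regulate several of these messages through the iron-responsive element, a hairpin with a CAGUGN loop and a bulged C that iron regulatory proteins bind. In a 5′ UTR binding blocks translation, and in the 3′ UTR of the transferrin receptor message it protects the message from cleavage. The hairpins in the UTRs of the called genes are shown, in the 5′ UTR of 3 genes called higher and in the 3′ UTR of Tfrc. They were found in GENCODE M21 transcripts (GRCm38) by a search of the sense strand for CNNNNNCAGTGN followed by 5 bases that pair with the 5 after the bulged C, and are printed 5′ to 3′ with the loop in capitals.
Alas2, 5′ UTR, chrX:150547459-150547485, plus strand: tggttcgtcctCAGTGCagggcaacag
Ftl1, 5′ UTR, chr7:45459780-45459806, minus strand: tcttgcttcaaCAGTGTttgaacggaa
Fth1, 5′ UTR, chr19:9982733-9982759, plus strand: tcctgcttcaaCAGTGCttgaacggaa
Tfrc, 3′ UTR, chr16:32631220-32631246, plus strand: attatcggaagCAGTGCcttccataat
Tfrc, 3′ UTR, chr16:32631599-32631625, plus strand: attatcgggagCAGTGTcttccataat
Tfrc, 3′ UTR, chr16:32631664-32631690, plus strand: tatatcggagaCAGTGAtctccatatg
Tfrc, 3′ UTR, chr16:32631711-32631737, plus strand: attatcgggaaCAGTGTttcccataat
The motif lay in a UTR of 21 of the 3105 tested genes with a coding transcript (0.676%) and in the 5′ UTR of 6 of them. It also matched within the coding part of Man1a and Bcl2l13, both called lower. A match is a description of the letters and not a measured binding site, and protein or translation was not measured.

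Ftl1, the ferritin light chain, stood at 1075, 763, 1692 and 2689 CPM in ERY-V and at 1768, 2025, 2847 and 3580.3 CPM in ERY-VI. Each ERY-VI library was above its partner although the gates overlapped, and the log2 fold change was 2.09 ± 0.34 (adjusted p = 0.000186) and 0.82 by library totals. An exon of the predicted gene Gm22133 overlaps Ftl1 on its strand. Fth1, the heavy chain, was called higher on the TMM scale (0.97 ± 0.30, adjusted p = 0.0402), yet its share of counts was lower in ERY-VI in 4 of 4 pairs, at 1588 ± 632 and 1289 ± 535 CPM, and its fold change by library totals was -0.31. Ncoa4, the receptor that takes ferritin to the lysosome, was called higher (1.59 ± 0.32, adjusted p = 0.00118). So were Iscu, the scaffold of iron-sulphur cluster assembly (1.69 ± 0.33, adjusted p = 0.000768), and Pcbp2, an iron chaperone and RNA-binding protein (1.76 ± 0.36, adjusted p = 0.00145).

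Tfrc, the transferrin receptor, stood at 585, 1590.1, 1209.8 and 1807 CPM in ERY-V and at 13.5, 77.6, 424 and 557 CPM in ERY-VI. All ERY-VI values were below all ERY-V values, with ERY-VI replicate 1 lowest. The log2 fold change was -1.89 ± 0.39 (adjusted p = 0.00144). The calls of Ftl1, Ncoa4, Iscu and Pcbp2 held with any 1 library left out, that of Tfrc ended without ERY-VI replicate 1, and that of Fth1 ended in 6 of the 8 fits (held only without ERY-V replicate 5 or 6). The other genes with the motif in the 5′ UTR, among them Slc40a1 and Eif2s1, did not pass (adjusted p 0.798 and 0.641 for these).

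Of 24 membrane and skeleton genes 1 was called higher (4.17%, near the 3.68% of all genes) and 4 lower (16.7%) on the TMM scale (median -0.69). The counts by library totals were 0 and 18. Epb4.1, which ties spectrin to the membrane, was among the 10 most abundant genes of both gates, at 18014 ± 4561 CPM in ERY-V and 22986 ± 5932 CPM in ERY-VI, and was called higher (1.64 ± 0.40, adjusted p = 0.00782). Ermap, an erythroid membrane-associated blood group protein, fell from 478, 1047, 272 and 457 CPM to 21.5, 89.9, 44.2 and 174 CPM (-1.71 ± 0.36, adjusted p = 0.0018). Rhag, of the Rhesus complex (-1.22 ± 0.38, adjusted p = 0.0402), Add2, an adducin of the spectrin junctions (-1.05 ± 0.33, adjusted p = 0.0439), and Epb4.2, which links band 3 to the skeleton (-0.96 ± 0.29, adjusted p = 0.04), were also called lower. Slc4a1, the anion exchanger band 3, dropped from 13857, 16490.4, 17980.3 and 19004 CPM to 3026, 3968, 7572 and 9469 CPM. The gates did not overlap, but this was close to the change of the median gene, and Slc4a1 was called by library totals (-1.63, adjusted p = 0.0034) and not on the TMM scale (-0.34 ± 0.34, adjusted p = 0.607). The call of Ermap ended without ERY-VI replicate 1 and that of Epb4.1 without either library of pair 1 or 4. That of Rhag held only without a library of pair 4, that of Epb4.2 only without ERY-V replicate 5, and that of Add2 in none of the 8 fits.

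Of 19 channel and transporter genes 0 were called higher and 4 lower (21%) on the TMM scale (median -0.53), and 0 and 9 by library totals. Slc16a1, the lactate transporter MCT1, stood at 324, 700.1, 367 and 384 CPM in ERY-V and at 12.1, 26.5, 104 and 71.7 CPM in ERY-VI. The lowest ERY-V library was above the highest ERY-VI library, and the log2 fold change of -2.12 ± 0.37 (adjusted p = 0.000389) held with any 1 library left out. Aqp1, the water channel, went from 280.4 ± 158 to 37.4 ± 11 CPM (-1.48 ± 0.36, adjusted p = 0.0069). Kcnn4, the Gardos potassium channel (-2.56 ± 0.73, adjusted p = 0.0257), and Slc43a1, an amino acid transporter (-1.39 ± 0.42, adjusted p = 0.0377), were the other calls. Itga4, the integrin alpha 4 that reticulocytes shed as they mature, went from 158, 442, 79.5 and 240.4 CPM to 8.54, 64.8, 12.9 and 49.7 CPM (-1.66 ± 0.41, adjusted p = 0.00745). The calls of Kcnn4, Slc43a1 and Itga4 ended without either library of pair 1, those of Kcnn4 and Slc43a1 also without either of pair 2, and that of Kcnn4 also without ERY-V replicate 7. That of Aqp1 ended without either library of pair 4.

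Of 17 erythroid regulators 1 was called higher (5.88%) and 4 lower (23.5%) on the TMM scale (median -0.70), and 0 and 12 by library totals. Klf1, which activates adult beta globin, stood at 55.2, 121, 37.7 and 115 CPM in ERY-V and at 0.294, 4.26, 17.9 and 15.3 CPM in ERY-VI (-2.42 ± 0.70, adjusted p = 0.0266). Tal1, of the GATA1 complex, went from 124 ± 67.0 to 14.3 ± 9.15 CPM (-1.87 ± 0.49, adjusted p = 0.0132). Nfe2, which drives globin enhancers (-1.62 ± 0.44, adjusted p = 0.0172), and Sox6, a repressor of embryonic globin (-1.45 ± 0.32, adjusted p = 0.00298), were also called lower. Mxi1, a MYC antagonist, was called higher (0.96 ± 0.30, adjusted p = 0.0402) while its share of counts was higher in 1 of 4 pairs. Gata1 was at 40.6 ± 7.68 and 10.1 ± 5.21 CPM (adjusted p = 0.516), and Epor, the erythropoietin receptor, was at 32.6 ± 25 and 2.39 ± 3.19 CPM (adjusted p = 0.0844). Sox6 lost its call without ERY-VI replicate 1, Klf1 and Nfe2 without any library of pairs 1 and 2, Tal1 without any library of pairs 2 and 4 or ERY-VI replicate 1, and Mxi1 in all 8 fits.

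Of 34 ubiquitin genes of late erythroid cells 10 were called higher and 1 lower on the TMM scale (median 0.58), against 3.68% and 3.05% of all genes. By library totals 1 was called higher and 8 lower (median -0.68). Ube2l6, an E2 enzyme that conjugates ubiquitin and ISG15, stood at 3038, 3078, 2733 and 3251 CPM in ERY-V and at 4358, 6015, 3940.4 and 4369 CPM in ERY-VI. Every ERY-VI library was above every ERY-V library, and the log2 fold change was 1.89 ± 0.35 (adjusted p = 0.000531) and 0.61 by library totals. Rnf10, Rnf11 and March2, all E3 ligases, were called higher with log2 fold changes of 1.54, 1.46 and 1.44. Ube2o, the E2/E3 enzyme that clears unneeded proteins from reticulocytes, was called higher (1.14 ± 0.35, adjusted p = 0.0377) with a share of 6351 ± 709 CPM in ERY-V and 5768 ± 619.8 CPM in ERY-VI. Dcaf12, Ube2b, Ube2r2 and Ube2c were also called higher, at 1.22, 1.07, 1.07 and 1.08, and each had a negative fold change by library totals. The gene called lower was the F-box protein Fbxo30 (-1.26 ± 0.38, adjusted p = 0.0363). The calls of Ube2l6, Rnf11 and March2 held with any 1 library left out. That of Rnf10 ended without either library of pair 1, that of Ube2o without any of pairs 1 and 4, and that of Fbxo30 without any of pairs 1 and 2. Exons of Hnrnpm overlap those of March2 on the same strand.

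The 26 proteasome subunits and regulators tested had a median of -1.19, against -0.39 for all genes, and by library totals 0 were called higher and 7 lower. The 1 member called on the TMM scale was Psme3, a proteasome activator, which was higher on the TMM scale (1.22 ± 0.32, adjusted p = 0.013) with shares of 1863 ± 67.7 and 1795 ± 252 CPM, and lost its call without any library of pairs 1 and 4.

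Of 25 genes of autophagy and mitochondrial clearance 4 were called higher (16%) and 1 lower (4%, near the 3.05% of all genes) on the TMM scale (median 0.03). The counts by library totals were 1 higher and 8 lower (median -1.25). Bnip3l, the NIX receptor that marks mitochondria for removal from reticulocytes, stood at 2934, 2692, 1874 and 1889 CPM in ERY-V and at 3691, 4779, 2556 and 2852 CPM in ERY-VI. Each ERY-VI library was above its partner (1.83 ± 0.33, adjusted p = 0.000519, and 0.55 by library totals). Gabarapl2, a membrane-bound partner of such receptors, was called higher with no overlap between the gates (1.77 ± 0.34, adjusted p = 0.000673), and Becn1, which starts the autophagosome, was called higher (1.58 ± 0.32, adjusted p = 0.00116). Map1lc3b, the LC3 gene, was called higher at 1.03 ± 0.33 (adjusted p = 0.0475) but had a negative fold change by library totals. Ulk1, the kinase at the head of the pathway, fell from 76.5, 317, 148 and 129 CPM to 5.59, 15.6, 63.3 and 43.5 CPM (-1.41 ± 0.44, adjusted p = 0.0447). The calls of Bnip3l, Gabarapl2 and Becn1 held with any 1 library left out, that of Map1lc3b in none of the 8 fits, and that of Ulk1 ended without any library of pairs 1 and 2.

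Among genes of vesicle formation, 2 of 17 were called higher and 2 lower (11.8% each). Higher were Chmp4b of the ESCRT-III filament (1.51 ± 0.35, adjusted p = 0.00395) and Snx3, a sorting nexin that recycles the transferrin receptor (1.51 ± 0.37, adjusted p = 0.0069). The 2 called lower were Itga4, given above, and Chmp2a, another ESCRT-III subunit (-2.83 ± 0.73, adjusted p = 0.0115), which went from 61.4, 74, 54.2 and 73.9 CPM to 0.883, 2.37, 20.2 and 3.68 CPM. The calls of Chmp2a, Chmp4b and Snx3 ended without ERY-VI replicate 1, that of Chmp2a also without ERY-V replicate 4 and that of Snx3 also without ERY-VI replicate 2.

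Bpgm was the 1 called gene of 7 tested for glycolysis, of 26 in the list. It encodes bisphosphoglycerate mutase, which makes the 2,3-bisphosphoglycerate that lowers the oxygen affinity of haemoglobin. It stood at 9179.7, 8867, 5392 and 5159 CPM in ERY-V and at 11838, 15565, 8707 and 8937 CPM in ERY-VI. It was higher in ERY-VI in 4 of 4 pairs, by 1.95 ± 0.37 on the TMM scale (adjusted p = 0.00068) and 0.67 by library totals, and held with any 1 library left out. Of 50 respiratory chain genes 1 was called higher (2%, against 3.68% of all genes) and the median was -0.22. It was Atp5b of the ATP synthase (1.41 ± 0.30, adjusted p = 0.00193). Of 25 genes for the pentose phosphate pathway and glutathione, Gstm5, a glutathione transferase, was called higher (2.0 ± 0.59, adjusted p = 0.0312) and Cyb5r3, which reduces methaemoglobin through cytochrome b5, lower (-2.71 ± 0.79, adjusted p = 0.029). Cyb5r3 stood at 51.8, 83.3, 43.8 and 72.9 CPM in ERY-V and at 0, 2.37, 9.52 and 14.7 CPM in ERY-VI. The call of Cyb5r3 ended without any library of pairs 1 and 2, that of Gstm5 held only without ERY-V replicate 6, and that of Atp5b ended without ERY-VI replicate 1.

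Of 71 cytosolic ribosomal protein genes 10 were called higher and 0 lower, by library totals 0 and 1, and the median was 0.87 on the TMM scale and -0.39 by library totals, in both cases above that of all genes. Their summed share was 0.383% of counts in ERY-V and 0.370% in ERY-VI (exact permutation p = 0.943), with ranges of 0.147 to 0.637% and 0.150 to 0.603%. Rplp0, of the ribosomal stalk, stood at 147, 222, 299 and 517 CPM in ERY-V and at 161, 237, 606 and 544 CPM in ERY-VI (1.62 ± 0.31, adjusted p = 0.000672). The gates overlapped, and ERY-VI was the higher member in 4 of 4 pairs. Rpl41 (1.53 ± 0.31) and Rpl10 (1.88 ± 0.48) were called as well, the latter with a small nucleolar RNA gene on the same strand. Tpt1, a translationally controlled growth factor message, had the smallest adjusted p of all genes (2.05 ± 0.30, adjusted p = 0.000107), and went from 201, 505, 707 and 1105 CPM to 333, 699, 1588 and 1779 CPM.

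Of 39 translation factors Eif1, which helps choose the start codon, was called higher (1.29 ± 0.36, adjusted p = 0.0192). Eif2ak1, the haem-regulated kinase that holds back globin translation when haem is short, was called lower, from 706, 1216, 1085 and 1139.7 CPM to 64.5, 76.6, 298 and 392 CPM (-1.42 ± 0.31, adjusted p = 0.00281). Rplp0, Rpl41 and Tpt1 held with any 1 library left out, Eif2ak1 lost its call without either library of pair 1, Eif1 without any of pairs 2 and 4, and Rpl10 without either of pair 4 or ERY-VI replicate 3.

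Of 30 replication-dependent histone genes 5 were called lower (16.7%), with a list median of -1.50, and 14 by library totals. Hist1h1a, a linker histone, stood at 82, 137, 34.4 and 262 CPM in ERY-V and at 0, 11.8, 12.9 and 4.91 CPM in ERY-VI (-3.08 ± 0.73, adjusted p = 0.006). Hist1h1c went from 739.6 ± 257 to 185 ± 161 CPM (-1.32 ± 0.37, adjusted p = 0.0208), and the other 3 were Hist1h1b, Hist1h1e and Hist2h2bb. Exons of other histone or predicted genes overlap those of Hist1h1e and Hist2h2bb on the same strand. Among 33 genes of mitosis Cenpf of the kinetochore (-1.97 ± 0.46, adjusted p = 0.00523), Cdca8 of the chromosomal passenger complex and Mki67 (-1.05 ± 0.32, adjusted p = 0.0402) were called lower, while Ube2c, an E2 enzyme of the anaphase-promoting complex that is also in the ubiquitin list, was called higher (1.08 ± 0.32, adjusted p = 0.0292) with 399 ± 103 and 341 ± 68.2 CPM. The mitosis calls were 9.09% of the list lower and 3.03% higher, against 3.05% and 3.68% of all genes. Mki67 was at 4807 CPM in ERY-V replicate 5 and at 547 to 1829 CPM in the other ERY-V libraries. The call of Cenpf held with any 1 library left out, that of Hist1h1a ended without ERY-V replicate 7, those of Hist1h1c and Hist1h1e without either library of pair 1, those of Cdca8 and Hist1h1b without any of pairs 1 and 4, and that of Mki67 without any of pairs 1 and 2. That of Ube2c ended without any library of pairs 1, 2 and 4, and that of Hist2h2bb held only without ERY-V replicate 5 or 6.

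Xpo7, an exporter linked to nuclear condensation in erythroblasts, was the most abundant gene called lower. It stood at 3039, 6340.2, 5367 and 4737 CPM in ERY-V and at 179, 475, 1469 and 1659 CPM in ERY-VI (-1.51 ± 0.33, adjusted p = 0.00279). Lbr, the lamin B receptor of the nuclear envelope, was called lower (-1.35 ± 0.41, adjusted p = 0.0379), and Myl6, a myosin light chain of the same list of 27 enucleation genes, was called higher (1.27 ± 0.38, adjusted p = 0.0308) with shares of 92.1 ± 21.6 and 90.4 ± 15.6 CPM. Son and Srrm2, large proteins of nuclear speckles, were the 2 of 35 splicing genes called, both lower (-1.52 ± 0.46 and -1.37 ± 0.41). That was 5.71% of the list, against 6.73% of all genes called in either direction and 3.05% called lower. Malat1, a nuclear long RNA, was at 3732, 11849, 5025 and 4802 CPM in ERY-V and at 259.6, 649, 3033 and 2850.0 CPM in ERY-VI, without overlap but short of the threshold on the TMM scale (-1.09 ± 0.39, adjusted p = 0.0812). Of 26 mRNA decay genes Btg2, which recruits the deadenylase, was called lower (-1.81 ± 0.49, adjusted p = 0.0173). The call of Xpo7 ended without either library of pair 1, those of Btg2 and Myl6 without any of pairs 1 and 2, and those of Lbr, Son and Srrm2 in 6 or more of the 8 fits. Exons of Npm2 overlap those of Xpo7 on the same strand.

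The largest fold changes upward without overlap belonged to 12 genes of varied function. Krtap6-2, annotated as a keratin-associated protein, went from 13.1, 2.45, 4.72 and 7.54 CPM to 25.6, 38.3, 20.7 and 21.5 CPM (3.32 ± 0.75, adjusted p = 0.00339), and lost its call without ERY-VI replicate 2. Oaz2, an ornithine decarboxylase antizyme, followed at 2.40 ± 0.65 (adjusted p = 0.0173). Ccndbp1, a cyclin D binding protein, stood at 813, 696, 484 and 480.3 CPM and at 1176, 1319, 820.3 and 826 CPM (2.03 ± 0.31, adjusted p = 0.000136). Sh3glb1, the Bax-interacting factor that takes part in autophagy (1.95), Ghitm, a mitochondrial inner membrane protein (1.85), and Lin54, a subunit of the DREAM complex (1.78), were also in this group, with Alas2, both alpha globin genes, Ube2l6 and Gabarapl2. The calls of Ccndbp1, Sh3glb1 and Ghitm held with any 1 library left out, and those of Oaz2 and Lin54 ended without either library of pair 1 or ERY-VI replicate 2, and that of Oaz2 also without ERY-VI replicate 3. By library totals 14 genes were called higher. They included Alas2, Hba-a1, Hba-a2, Hbb-b1, Bpgm, Bnip3l, Ube2l6, Sh3glb1, Ccndbp1, Ftl1, Tpt1, Mir6236 and Lars2.

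Mir6236 is annotated as a microRNA hairpin and was among the 10 most abundant genes of both gates, at 13909.9 ± 3128 and 27266 ± 16298 CPM (2.08 ± 0.44, adjusted p = 0.00206). It reached 50394 CPM in ERY-VI replicate 2. Lars2, the mitochondrial leucyl-tRNA synthetase, was at 6425 ± 2214 and 10332 ± 5898 CPM (1.88 ± 0.38, adjusted p = 0.00129), with 19028 CPM in the same library. The call of Mir6236 ended without either library of pair 1, and that of Lars2 held in all 8 fits. Whether these counts come from the named gene or from another RNA that matches its locus was not tested.

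The 12 lowest fold changes without overlap were in messages with means of 13.7 CPM (Clk4) to 103 CPM (Pkhd1l1) in ERY-V. Clk4, a kinase of splicing factors, stood at 9.4, 30.3, 10.4 and 4.53 CPM in ERY-V and had 0 counts in all 4 ERY-VI libraries. By pooled CPM it was at least 51.4-fold lower when 3 counts over the pooled ERY-VI libraries are taken as the floor. Pooling gives ERY-V replicate 5, the deepest library, the most weight, and pooled CPM are relative to library totals, which move genes down. Man1a, a Golgi mannosidase, had 628 counts in ERY-V and 3 in ERY-VI, a ratio of pooled CPM of 121 (95% interval 41.2 to 588, counting error only). Cdca8 had 454 and 3 counts (ratio 87.4, 29.7 to 425.5), and Pot1a, which caps telomeres, had 293 counts and 1 (ratio 169, 30.1 to 6709). Pkhd1l1, a large membrane protein, went from 78.6, 187, 38.7 and 107 CPM to 4.71, 7.57, 0.56 and 0.613 CPM (-3.76 ± 0.68, adjusted p = 0.000507). Srrt, which helps microRNA processing, fell from 37.4, 95.4, 50.2 and 82 CPM to 1.77, 1.42, 6.16 and 1.84 CPM (-3.37 ± 0.74, adjusted p = 0.00279). Cldn13, a claudin of mouse erythroid cells, went from 76.3 ± 17.8 to 5.16 ± 6.12 CPM (-3.45 ± 0.73, adjusted p = 0.00198). Mfhas1 (-4.99), Ppm1d (-3.95), Cadm3 (-3.89), Maf1 (-3.78) and Fn3k (-3.62) made up the rest of the 12. Exons of Ackr1 overlap those of Cadm3 on the same strand. With a library left out, the calls of Pkhd1l1, Srrt and Cldn13 held in all 8 fits. That of Mfhas1 ended without ERY-V replicate 5, those of Man1a, Ppm1d and Fn3k without any of pairs 1 and 2, that of Maf1 without any of pairs 1 and 4, and those of Clk4, Cadm3 and Pot1a in 5 or more fits.

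Calls among heat shock, interferon and immediate early genes numbered 5, of 35 tested, against 6.73% of all genes. Hsp90ab1, a cytosolic HSP90 (1.73 ± 0.31, adjusted p = 0.000456), and Bag1, a partner of HSP70 (1.92 ± 0.31, adjusted p = 0.000182), were the 2 of 16 heat shock genes called, both higher on the TMM scale. Hsp90ab1 stood at 148, 226, 178 and 205 CPM in ERY-V and at 145, 144, 449 and 451 CPM in ERY-VI, so its share was higher in 2 of 4 pairs. Bag1 stood at 99.7, 111, 160.4 and 198 CPM in ERY-V and at 158, 104, 330.4 and 376 CPM in ERY-VI, so the second pair did not share the direction by share of counts. Irf7, the regulator of interferon genes, was the 1 of 17 interferon genes called (1.32 ± 0.33, adjusted p = 0.00907). It followed the pair and not the gate by share, at 339, 286, 54.6 and 54.8 CPM in ERY-V and at 256, 359, 64.4 and 53.3 CPM in ERY-VI. Of 23 immediate early genes 2 were tested, Jund of the AP-1 factor, which was called higher (1.53 ± 0.33, adjusted p = 0.00217), and Btg2, called lower as given above. The calls of Hsp90ab1, Bag1 and Jund held with any 1 library left out, and that of Irf7 ended without ERY-VI replicate 2.

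On the TMM scale edgeR called no member among 11 genes of the TCA cycle, 11 of glutamine and glutamate metabolism, 25 of DNA replication, 7 regulators of apoptosis, 6 nuclear RNAs, 5 mitochondrial ribosomal proteins and 2 small structural RNAs. Among all genes 6.73% were called, so 0 calls in lists this small cannot show a lack of change. At an unadjusted p under 0.05 these lists held 1, 2, 1, 1, 1, 0 and 0 genes, all lower. By library totals edgeR called 2, 3, 3, 3, 1, 0 and 1 of them, all lower. DESeq2 called 1 each for the first 4 lists, all lower, and limma-voom 1 each for apoptosis and nuclear RNAs. Glul, glutamine synthetase, was at 323 ± 33.7 and 121 ± 32.9 CPM without overlap, near the change of the median gene (TMM -0.16 ± 0.32, adjusted p = 0.82). Tspo2, an erythroid cholesterol-binding protein, was at 219 ± 38.9 and 113 ± 67.5 CPM (adjusted p = 0.859). The RNase P-like genes Rprl1, Rprl2 and Rprl3 had 1 count in all 8 libraries together.

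Markers of other blood cells were not among the calls. Of 6 neutrophil, 7 monocyte and macrophage, and 1 B cell marker with enough counts, edgeR, DESeq2 and limma-voom called 0, and 0 had an unadjusted p under 0.05. With 6.73% of all genes called by edgeR, 0 of so few cannot show that these markers did not differ. Their sums differed between libraries of 1 gate more than between gates. The 24 monocyte and macrophage markers summed to 17.6 to 682.6 CPM in ERY-V and 11.2 to 352 CPM in ERY-VI, and the 18 mast cell and basophil markers to 85.0 CPM in ERY-V replicate 5 and at most 1.18 CPM elsewhere. Of the 19 neutrophil markers 2, Elane and Cxcr2, were at 0 in all 4 ERY-VI libraries. S100a9 was at 264 ± 511 CPM in ERY-V and 103 ± 117 CPM in ERY-VI (SD, n = 4 each). Its log2 fold change was 1.45 on the TMM scale and 0.103 by library totals. All 6 neutrophil and all 7 monocyte and macrophage markers tested had positive fold changes on the TMM scale (medians 1.174 and 1.001). By library totals these medians were -0.246 and -0.648. Of the monocyte and macrophage markers 3 were at 0 in ERY-VI, of the B cell markers 9, with Cd79a among them, of the T and NK cell markers 15, with Cd3e, and of the platelet markers 11, with Pf4. B cell markers summed to 10.6 to 166 CPM in ERY-V and 6.48 to 58.2 CPM in ERY-VI, T and NK cell markers to 0 to 26.9 and 0 to 9.46 CPM, and platelet markers to 9.77 to 62.8 and 2.24 to 26.5 CPM. Stem and progenitor markers, some of which erythroid cells share, summed to 407 to 679 and 173 to 276.5 CPM. The part of these cells in the calls was not tested beyond the fits without ERY-V replicate 5.

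**Figure D4:**
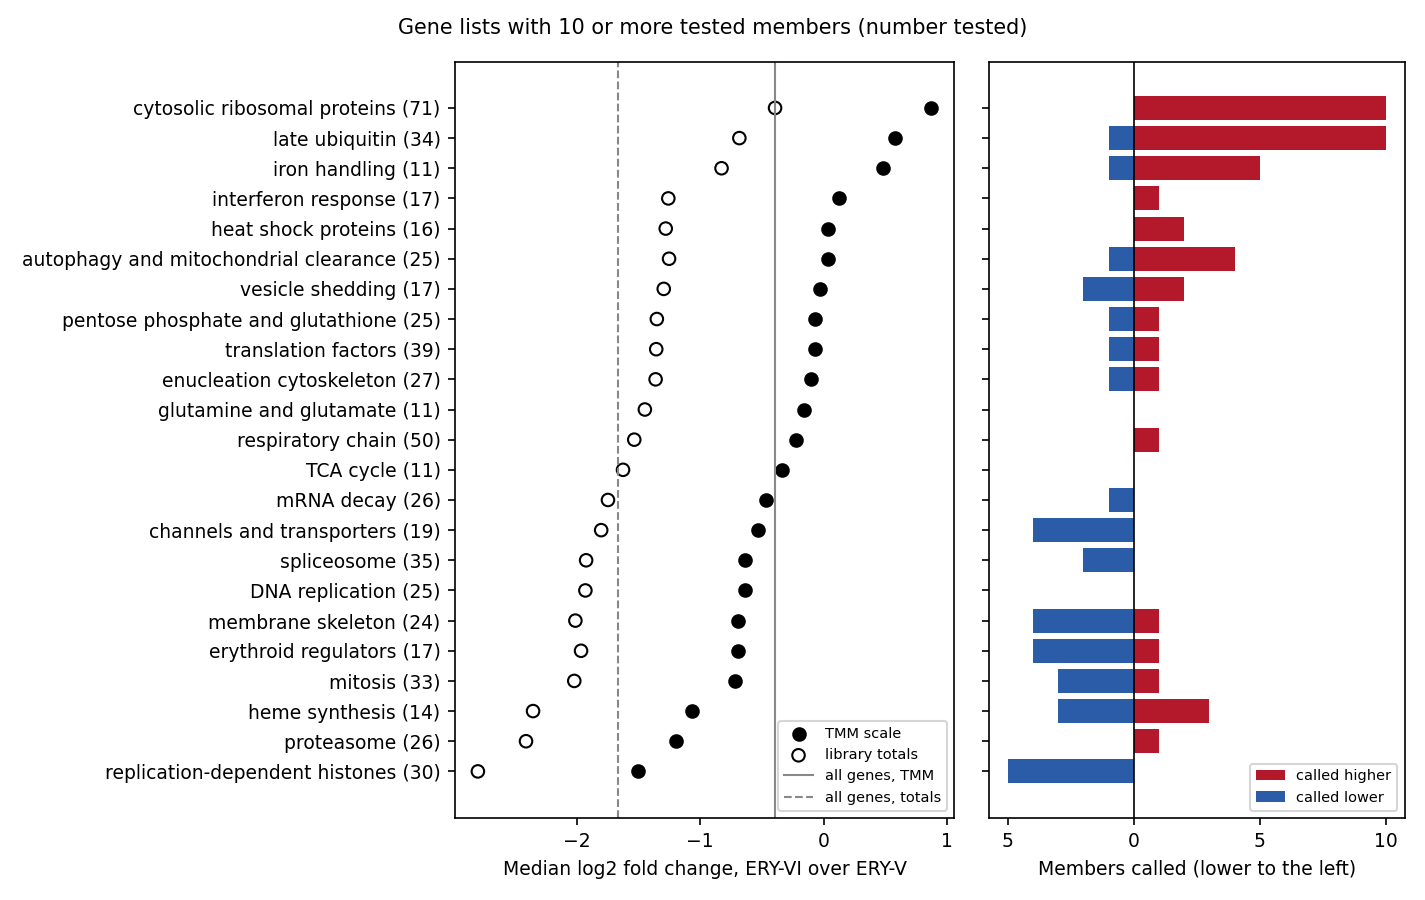
Left, median log2 fold change of each gene list with 10 or more tested members, on the TMM scale (filled) and by library totals (open), with the medians of all 3148 genes as grey lines; right, number of members called higher (red) and lower (blue) on the TMM scale. Ribosomal protein, late ubiquitin and iron genes have the highest medians and the most members called higher, and histone genes the lowest median.

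Among the genes called lower the ERY-VI libraries also differed from each other by share of counts. In 67 of the 96 (69.8%) ERY-VI replicates 1 and 2 were both below replicates 3 and 4, against 36 of the 116 genes called higher (31%) and 1083 of all 3148 (34.4%). Tfrc is an example, as given above, and so are Slc16a1 and Xpo7. ERY-V replicate 5 was the highest ERY-V library in 80 of the 96 (83.3%), in 33 of the 116 (28.4%) and in 2044 of all genes (64.9%). The 96 were called from these same libraries, so these percentages partly restate how they were chosen. The ranks also use CPM without the TMM factors. Those factors were 0.440 and 0.648 for ERY-VI replicates 1 and 2, and 0.678 and 0.870 for replicates 3 and 4. For ERY-V replicate 5 the factor was 2.55, against 1.15 to 1.65 for the other ERY-V libraries.

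Earlier gates give the levels from which these genes came, as means of 4 Xist-positive libraries a gate. Alas2 stood at 1739 CPM in ERY-I and 8906.7 CPM in ERY-IV, before 16752 CPM in ERY-V and 31061 CPM in ERY-VI. Bpgm went from 279.5 in ERY-I through 2447 in ERY-IV to 11262 CPM in ERY-VI, and Ube2l6 from 369 through 1652 to 4671 CPM. Tfrc held between 3069 and 3456 CPM from ERY-I to ERY-IV and was at 1298 CPM in ERY-V and 268 CPM in ERY-VI. Xpo7 peaked in ERY-IV at 7447 CPM, from 392 CPM in ERY-I. Hsp90ab1 took another course, with 2382 CPM in ERY-I, 163 in ERY-IV and 297 in ERY-VI, the last from high values in replicates 3 and 4. Tpt1 did likewise, at 1184, 698 and 1099.7 CPM. In libraries that the comparison did not use, 64 of the 116 genes called higher (55.2%) and 60 of the 96 called lower (62.5%) had a higher mean share in ERY-IV than in ERY-I, against 783 of all 3148 (24.9%). Both directions lay above the share of all genes, and genes matched to the calls by abundance were not compared.

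**Figure D5:**
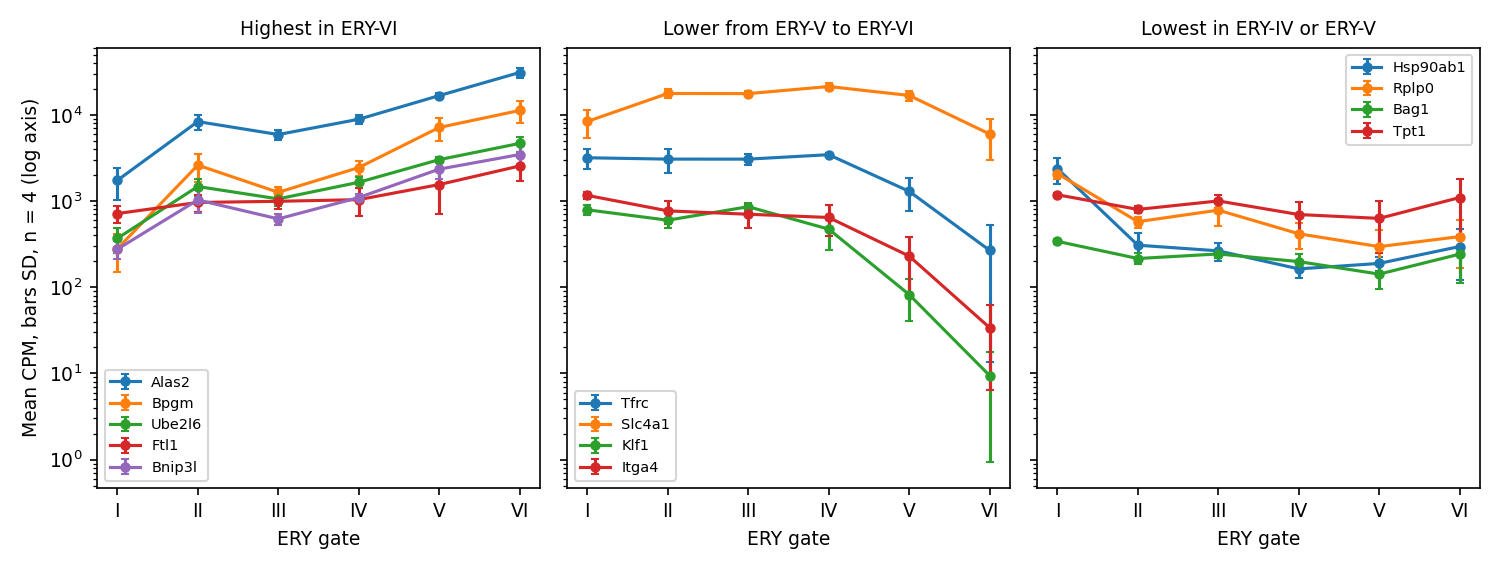
Mean CPM with SD (n = 4 Xist-positive libraries a gate, log axis) of 13 genes from ERY-I to ERY-VI. The left panel holds genes with their highest mean in ERY-VI, the middle panel genes lower in ERY-VI than in ERY-V, and the right panel genes with their lowest mean in ERY-IV or ERY-V.

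Genes called higher had a shorter median message. The longest coding transcript in GENCODE M21 had a median length of 2536 nucleotides for 113 genes called higher, 3780 for the 96 called lower and 3316 for all 3105 genes with a transcript. Median coding lengths were 981, 1785 and 1554 nucleotides. Below 1000 nucleotides 7.96% of 201 genes were called higher and 1.99% lower, and from 6000 nucleotides on 1.28% of 545 were called higher and 4.4% lower. Across all genes the relation was weak (Spearman's rho -0.06 between length and log2 fold change over 3105 genes, which are not independent), and without ribosomal protein and globin genes it was -0.03. Short transcripts include most ribosomal protein and globin genes. Without these genes the median lengths were 2664 nucleotides for genes called higher, 3780 for those called lower and 3382 for all. The median coding lengths were then 1038, 1785 and 1591.5 nucleotides, so genes called higher still had the shorter medians. Whether length itself plays a part was not tested.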

How the data were processed

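Reads were counted per gene by the authors, and the deposited table holds raw counts for 24059 gene symbols. Per the submitters' processing notes STAR 2.5.2b, HTSeq and mouse build mm10 were used, and per the labels' protocols a stranded kit for small amounts of total RNA was used. The annotation and the strand setting of the counting were not given in the sources used here. Counts were used unchanged.

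ERY-VI replicates 1 to 4 were compared with ERY-V replicates 4 to 7 in edgeR 4.0.16 (R 4.3.3). Genes were kept by filterByExpr (minimum count 10, minimum total 15), scaled by TMM and tested by the quasi-likelihood F test with pair and gate as terms. The p-values of the 3148 tested genes were adjusted by Benjamini and Hochberg's method and called below 0.05. Each standard error (SE) was the log2 fold change divided by the square root of its F. CPM are relative to library totals. Values of single libraries were compared by two-sided exact permutation tests.

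Pairs are by order within the gate, as the comparison was defined, and the labels do not say what the positions share. As a check, deviations from gate means correlated at 0.178 to 0.293 between paired libraries and at most 0.15 between others, and all 8 libraries correlated best with their own position, so the pairing was kept.

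The comparison, the 38 gene lists and the naming rule were chosen with earlier results of these data known. Genes named are landmarks, the 12 highest and 12 lowest fold changes among calls with no overlap between gates, a mean of 5 CPM or more, a 2-fold change or more and the same sign by library totals, the 10 most abundant genes of a gate, and in each list the called members of largest fold change or smallest p and the most abundant. Further called members, named to account for a list's count, and Xpo7 were chosen after their values were seen. Some genes that the rule names are not reported here. Features with the same name in GENCODE M21 (GRCm38) or 1 RefSeq synonym gave transcripts for 98.6% of tested genes.

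Counts were also simulated for this comparison, with 2472 genes in the fit and 200 changed, 151 of them in the fit. There 8.97% of log2 changes of 1 and 39.7% of changes of 2 were found, with 0 false among 36 calls. The comparison itself had 3148 genes in the fit. Whether calls that depend on the scaling are false was not tested. Alternatives were DESeq2 1.42.0, limma-voom (limma 3.58.1), other scalings and filters, no pair, all 7 ERY-V libraries and each library left out in turn.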

Additional observations from a re-analysis of the deposited data

Results flagged for a closer look

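In 15 of 214 checked sets of 4 libraries, 1 library lay apart from the other 3 by Dixon's criterion for 4 values, where chance gives about 5% of sets. ERY-V replicate 5 accounted for 6. It held 700.1 CPM of Slc16a1 (324 to 384 in the other ERY-V libraries), 812 CPM of Sox6 (359 to 400.4), 11850 CPM of Malat1 (3732 to 5025), 40.1 CPM of Lin54 (27.2 to 28.2), 103 CPM of Cadm3 (16.7 to 27.7) and 103 CPM of Fn3k (33.7 to 42.3). ERY-V replicate 6 held 9280 CPM of Mir6236, below the 14996 to 16165 of the others.

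ERY-VI replicate 3 accounted for 5. It held 20.2 CPM of Chmp2a (0.883 to 3.68 in the other ERY-VI libraries), 9.52 CPM of Ppm1d (0 to 1.23), 10.6 CPM of Cadm3 (0 to 0.613), 6.16 CPM of Srrt (1.42 to 1.84) and 0.56 CPM of Pot1a, which was at 0 in the others. ERY-VI replicate 1 held 37.7 CPM of Oaz2 (17.8 to 19.4). ERY-VI replicate 2 held 1.42 CPM of Cdca8, at 0 in the others, and ERY-VI replicate 4 held 15.3 CPM of Fn3k (0 to 2.24). The values of Pot1a and Cdca8 rest on 1 and 3 counts.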

How the results depend on the processing

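Against 116 genes higher and 96 lower, library totals gave 14 and 630, ribosomal protein scaling 2 and 870, DESeq2 221 and 262, no low-count filter 36 and 86, and all 7 ERY-V libraries without pairs 167 and 227. The model with no replicate block gave 52 and 13, which rests on the pairing. Library totals without ERY-V replicate 5, chosen after seeing the data, gave 5 and 153. Leaving out 1 library gave 59 to 126 higher and 24 to 114 lower. In these fits, the added one aside, none of the 212 genes was called in the opposite direction. Signs in each setting were compared for 104 named genes only. Dcaf12, Ube2b, Ube2r2, Pabpc1, Gpx1, Bcl2l1, E2f2, Rsad2 and Lmo2 were outside this set and also turned negative by library totals. Within the set, the fold change by library totals turned negative for Hbb-b2 (-0.19), Fth1 (-0.31), Mxi1 (-0.32), Ube2o (-0.14) and Psme3 (-0.064). It also did for Map1lc3b (-0.26), Ube2c (-0.21), Myl6 (-0.016), Tspo2 (-1.15) and Xist (-1.12). With ribosomal protein scaling it did for Hbb-b2 (-0.083), Fth1 (-0.21), Mxi1 (-0.21), Ube2o (-0.040), Map1lc3b (-0.15), Ube2c (-0.10), Tspo2 (-1.05) and Xist (-1.01), and with no filter for Tspo2 (-0.25) and Xist (-0.22). These 2 scalings shift all genes down. Glul was at 0.11 with all 7 ERY-V libraries and between -0.33 and 0.10 with 1 library left out, and Xist between -0.20 and 0.37. The globin share difference was 27.7 points with all 7 ERY-V libraries (exact permutation p = 0.0242) and 9.11 to 16 with 1 left out, against 13.3. The difference in genes expected was -2919 with all 7 (exact permutation p = 0.0182) and -2985 to -1292.5 with 1 left out. The 10-gene share difference of 15.7 points had the smallest p that the exact sign-flip test of 4 pairs allows, which is above 0.05, and was 11.7 to 18.0 with 1 left out. Where scaling does not show it, the cause was not tested. Depth limits genes of a few CPM, which rest on few counts in the shallowest library of 1630863.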

Other observations

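Several abundant messages that were not called on the TMM scale were a smaller share of ERY-VI in 4 of 4 pairs. A smaller share was common, since 926 of all 3148 genes (29.4%) were below without overlap. Pabpc1, the cytoplasmic poly(A)-binding protein and the most abundant non-globin message of ERY-V, stood at 21132 ± 1853 CPM there and at 16048 ± 2813 CPM in ERY-VI (SD, n = 4 each). Gpx1, the glutathione peroxidase of red cells, stood at 8362 ± 649 and 3949 ± 1138 CPM without overlap. Bcl2l1, the survival factor Bcl-xL, was at 2009 ± 51.4 and 1102 ± 120 CPM, and E2f2, a cell cycle factor of late erythroblasts, at 1291 ± 291 and 723 ± 227 CPM, also without overlap. Rsad2, an interferon-inducible gene, was at 4780.5 ± 721 and 3242 ± 378 CPM, again without overlap. Lmo2, of the erythroid GATA1 complex and counted among stem and progenitor markers, was at 444 ± 59.6 and 208 ± 50.8 CPM. On the TMM scale their log2 fold changes were 0.87 for Pabpc1, 0.16 for Gpx1, 0.41 for Bcl2l1, 0.42 for E2f2, 0.72 for Rsad2 and 0.17 for Lmo2, with adjusted p from 0.194 to 0.82 in edgeR. By library totals they were -0.41, -1.12, -0.87, -0.87, -0.56 and -1.12 in the same order. Each thus fell less than the median of all genes, which was -1.67 by library totals.

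Slc25a39, a mitochondrial carrier needed for glutathione import, was called higher outside the lists, from 1955 ± 314 to 2681 ± 114 CPM without overlap (1.75 ± 0.33, adjusted p = 0.000672 in edgeR). It was picked after its values were seen, and whether its call held with a library left out is not given here.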
